A study of Mus musculus with 3 samples.

Results

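The transcripts of 6 genes of the transforming growth factor beta (TGF-beta) system were followed across the states of tumour-associated macrophages: the ligand gene Tgfb1, the distant ligand relative Gdf15, the receptor genes Tgfbr1 and Tgfbr2, the inhibitor Smad7 and the target gene Tgfbi. They were taken by name from the 31053 features of each count matrix, and all 6 were found. Cells were kept with at least 500 detected genes and with at most 15% of their UMIs (unique molecular identifiers, each standing for 1 captured transcript) from mitochondrial genes. The study profiled F4/80+ macrophages from tumours of 3 MMTV-PyMT mice of strain FVB/N-Tg(MMTVPyVT)634Mul/J, in which the mouse mammary tumour virus promoter drives the polyoma middle T oncogene in mammary epithelium. From each mouse, 1 mammary adenocarcinoma of 750 mm3 was minced and digested with collagenase I and deoxyribonuclease I for 60 min at 37 °C, and CD45+ Ly6G- CD11b+ F4/80+ cells were sorted for single-cell RNA sequencing from the transcripts' 3' ends. The mice form 1 group, with no tumour-free or treated animals, so every comparison sets a class of macrophages against the other classes of the same mice. The age of the mice is not given in the sources used here.

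TGF-beta1, the product of Tgfb1, is secreted in a latent complex and has to be released before it can act. The released ligand binds the type II receptor, encoded by Tgfbr2, which phosphorylates the type I receptor, encoded by Tgfbr1. The activated type I receptor then phosphorylates Smad proteins that carry the signal into the nucleus. Smad7 is an inhibitory Smad that the signal itself induces and that acts back on the type I receptor, and Tgfbi encodes a secreted matrix protein named for its induction by TGF-beta. Gdf15 encodes a stress-induced cytokine that is distantly related to TGF-beta and acts through the receptor GFRAL, with RET, in the hindbrain. Macrophages are a known source of TGF-beta1 in tumours and in healing wounds, and TGF-beta in turn shapes resident macrophage populations in several tissues.

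All 6 are protein-coding genes, and none of them overlapped another gene of the mm10 annotation (GENCODE). Tgfbr1 lies at chr4:47353222-47414931 on the plus strand, Tgfbr2 at chr9:116084293-116175360 on the minus strand and Gdf15 at chr8:70629393-70632456 on the minus strand. The 250 bases upstream of the RefSeq gene start (mm10) are shown for the receptor pair, whose levels parted in a resident-like class described below, and for Gdf15, whose UMIs lay in few cells. Each is written 5′ to 3′ on the gene's own strand, and capitals mark CG dinucleotides. They cover chr4:47352972-47353221 on the plus strand for Tgfbr1, chr9:116175364-116175613 on the minus strand for Tgfbr2 and chr8:70632457-70632706 on the minus strand for Gdf15.
Tgfbr1: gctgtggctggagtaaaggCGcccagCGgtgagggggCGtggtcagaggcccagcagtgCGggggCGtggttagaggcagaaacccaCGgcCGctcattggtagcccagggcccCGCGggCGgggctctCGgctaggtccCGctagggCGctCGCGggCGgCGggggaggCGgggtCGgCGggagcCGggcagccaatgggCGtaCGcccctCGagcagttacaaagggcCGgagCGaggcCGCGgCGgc
Tgfbr2: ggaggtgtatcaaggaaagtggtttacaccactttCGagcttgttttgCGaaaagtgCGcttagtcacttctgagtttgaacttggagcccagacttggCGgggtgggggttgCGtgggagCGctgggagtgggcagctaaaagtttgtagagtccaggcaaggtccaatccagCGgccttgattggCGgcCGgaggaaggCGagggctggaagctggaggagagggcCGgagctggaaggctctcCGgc
Gdf15: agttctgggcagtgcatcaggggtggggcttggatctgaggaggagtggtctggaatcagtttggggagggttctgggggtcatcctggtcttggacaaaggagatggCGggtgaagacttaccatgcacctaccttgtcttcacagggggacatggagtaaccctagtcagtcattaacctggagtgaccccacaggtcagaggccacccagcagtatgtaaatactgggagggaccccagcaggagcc
The Tgfbr1 sequence held 29 CG dinucleotides and the Tgfbr2 sequence held 12, while the Gdf15 sequence held 1. Over 27025 RefSeq promoters of this length the median was 6 and the quartiles were 2 and 16, and 94.4%, 68.2% and 19.4% of promoters held as few as Tgfbr1, Tgfbr2 and Gdf15. On both strands, no match was found in the 3 sequences for the AP-1 letters TGANTCA, present in 6.87% of promoters, the heat-shock letters GAANNTTC, in 6.78%, or the ATF4 composite letters TGATGNAA, in 3.53%. The Smad box letters CAGAC, present in 42.1% of promoters, matched 1 time in Gdf15, 1 time in Tgfbr2 and not in Tgfbr1. These matches describe letters and say nothing of binding.

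The libraries of mice 1, 2 and 3 held 12454677, 41097369 and 86178419 UMIs in 1074, 2470 and 7429 barcodes, of which 660, 2097 and 6978 were kept, with medians of 14989, 13576 and 9318.5 UMIs per cell. Mouse 1 stood apart, with 36.0% of its barcodes above the mitochondrial limit, against 12.1% in mouse 2 and 4.13% in mouse 3. Mice 2 and 3 shared 8 barcodes, 7 of them among the kept cells, and the other pairs of mice shared none. Clustering without the 6 genes and without their pathway lists gave 15 classes of macrophages with 9681 cells and 1 cluster of 54 tumour epithelium-like cells. Over the 15 classes, the share of cells with a UMI ran from 64.5% to 99.9% for Csf1r, the macrophage growth factor receptor, with a median of 97.8%. It ran from 40.2% to 99.3% for Adgre1, which encodes F4/80 (median 86.0%), from 26.7% to 94.2% for Itgam, which encodes CD11b (median 64.2%), and from 8.82% to 72.5% for Mertk, a phagocytic receptor of macrophages (median 31.7%). The lowest of each was the shallow unnamed cluster 11. Markers of T cells (Cd3e), B cells (Cd79a) and endothelium (Cdh5) were found in at most 1.56%, 0.202% and 1.99% of the cells of any class, and those of fibroblasts (Col1a1) and epithelium (Epcam) in at most 6.88% and 11.04%. The milk protein gene Csn3, abundant in the epithelium-like cells, had a UMI in 4.68% to 36.1% of the cells of a class (median 15.3%), with 36.1% in cluster 1, 30.7% in cluster 12 and 28.9% in cluster 8, and its part in the results for these classes was not tested. Classes carry a name only where fixed markers gave one: LYVE-1 resident-like (clusters 1 and 8), inflammatory-like (2 and 6), cycling-like (5 and 13), lipid-associated-like (0), heat-shock and immediate-early-like (4), hypoxia-like (9) and interferon-like (10), while clusters 3, 7, 11, 12 and 14 stayed unnamed. Levels are given in CPM, a gene's UMIs per 1000000 UMIs of the same cells, and in a class they come from the summed UMIs of 1 mouse. Clusters 10 and 12 had under 10 cells in mouse 1 and were compared in mice 2 and 3 alone. They gave no value in the alternatives that left out mouse 2 or mouse 3.

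All 6 genes were detected in the macrophages of every mouse, but they were spread over the cells very differently. Tgfb1 stood at 311, 366 and 280 CPM in mice 1, 2 and 3, and Tgfbi at 476, 499.6 and 521 CPM. For Tgfbr1 the levels were 220, 313 and 217 CPM, and for Tgfbr2 they were 108, 129 and 134 CPM. Smad7 was the most even between mice, at 80.4, 77.0 and 83.2 CPM, and Gdf15 the least, at 61.9, 36.8 and 86.9 CPM. A UMI of Tgfb1 was found in 88.2 ± 3.07% of macrophages (mean and SD, n = 3 mice), of Tgfbi in 87.8 ± 2.32%, of Tgfbr1 in 75.9 ± 7.98%, of Tgfbr2 in 69.3 ± 4.57%, of Smad7 in 49.2 ± 4.70% and of Gdf15 in 14.99 ± 3.09%. With every cell thinned to 3000 UMIs, which left out 69, 154 and 453 shallower macrophages of mice 1, 2 and 3, those shares were 59.2 ± 3.65% for Tgfb1, 64.6 ± 3.004% for Tgfbi, 45.0 ± 9.06% for Tgfbr1, 30.3 ± 2.19% for Tgfbr2, 19.2 ± 1.42% for Smad7 and 7.44 ± 2.18% for Gdf15. Of the 54 epithelium-like cells at full depth, with a median of 4275 UMIs, 29.6% had a UMI of Tgfb1 and 25.9% of Tgfbi. Their shares were 18.5% for Tgfbr1, 22.2% for Tgfbr2, 22.2% for Smad7 and 5.56% for Gdf15, beside 22.2% for the macrophage gene Csf1r. Of the 32 such cells with at least 3000 UMIs, thinned to that depth, 21.9% had Tgfb1, 18.8% Tgfbi and 9.38% Tgfbr2. Tgfbr1 and Smad7 each had a UMI in 6.25% of them and Gdf15 in 0%, beside 21.9% for Csf1r. In all 54 cells Smad7 stood at 44.6 CPM, against 81.2 CPM in all macrophages, and Csf1r at 137 CPM, against 727 CPM. Whether the epithelium-like cells transcribe the 6 genes was not tested.

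**Figure D1:**
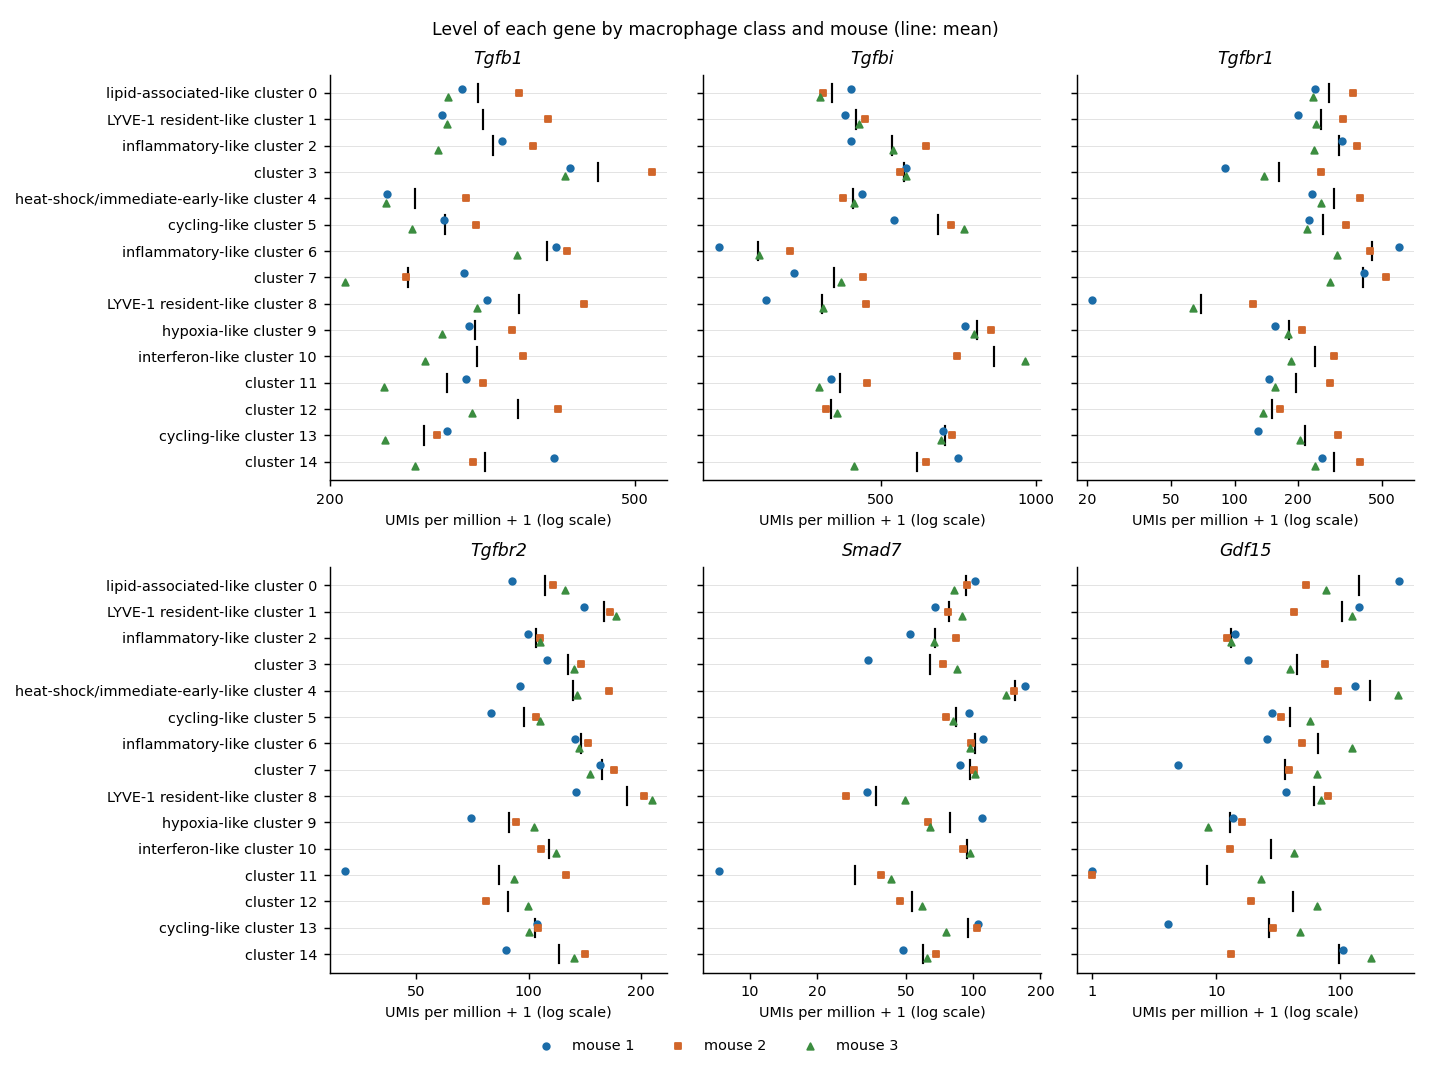
Levels of the 6 genes in each macrophage class, as CPM + 1 on a log horizontal axis, with 1 point per mouse and a vertical line at the mean over mice. Tgfbr1 is lowest and Tgfbr2 highest in LYVE-1 resident-like cluster 8, Smad7 is highest in heat-shock and immediate-early-like cluster 4, and the points of Gdf15 lie far apart between mice within most classes.

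Which of the 6 genes varied between macrophage states was tested on UMI sums per mouse and class with edgeR's quasi-likelihood test, with the mouse as a block and Benjamini-Hochberg adjustment over the 9089 tested genes that were not used to form the classes. All 6 varied across the 15 classes, where 77.3% of all genes tested did, so a call on this test was common. Adjusted p ranged from 1.07e-13 for Tgfb1 to 2.89e-04 for Gdf15. In single classes against the mean of the others, 38 of the 90 pairs of gene and class passed the threshold of 0.05, 21 higher and 17 lower, beside 19.4% of the pairs over all genes, of which 11.5% of pairs were higher and 7.89% lower. By class, 5 of the 6 genes were called in cluster 6, where 28.1% of all genes were, 4 in clusters 8 (32.8% of all genes), 7 (34.8%), 12 (23.4%) and 2 (21.4%), and 3 in clusters 3 (24.7%), 4 (14.5%), 5 (28.2%) and 13 (31.4%). There were 2 calls in clusters 1 (17.8%) and 9 (8.91%) and 1 in cluster 10 (4.79%). Clusters 0 (5.91%), 11 (8.68%) and 14 (5.06%) had 0 calls by edgeR, although 2, 3 and 1 of the genes there had an unadjusted p under 0.05, and DESeq2 called 2, 2 and 0. The classes were drawn from these same cells, so the p-values are no test of a difference apart from the clustering. They rest on the spread of class differences between 3 mice, since the block takes out mean differences between mice. All classes share 1 estimate of that spread. Leaving out a mouse cost many of the calls: 3 of 38 without mouse 1 and 18 of 33 with a value without mouse 2. Without mouse 3 it cost 15 of 33. Of the 38 calls, 11 held in every one of the 21 alternative settings that gave them a value, and these lead the accounts below. The settings with a value numbered from 13, for calls in cluster 6, to 21, for Tgfb1 in cluster 7. A setting gave no value where the class dropped out or its overlap with its best match (shared over joint cells) was under 0.3. Such settings were not counted as losses, so holding in each is a weaker statement for these classes.

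**Figure D2:**
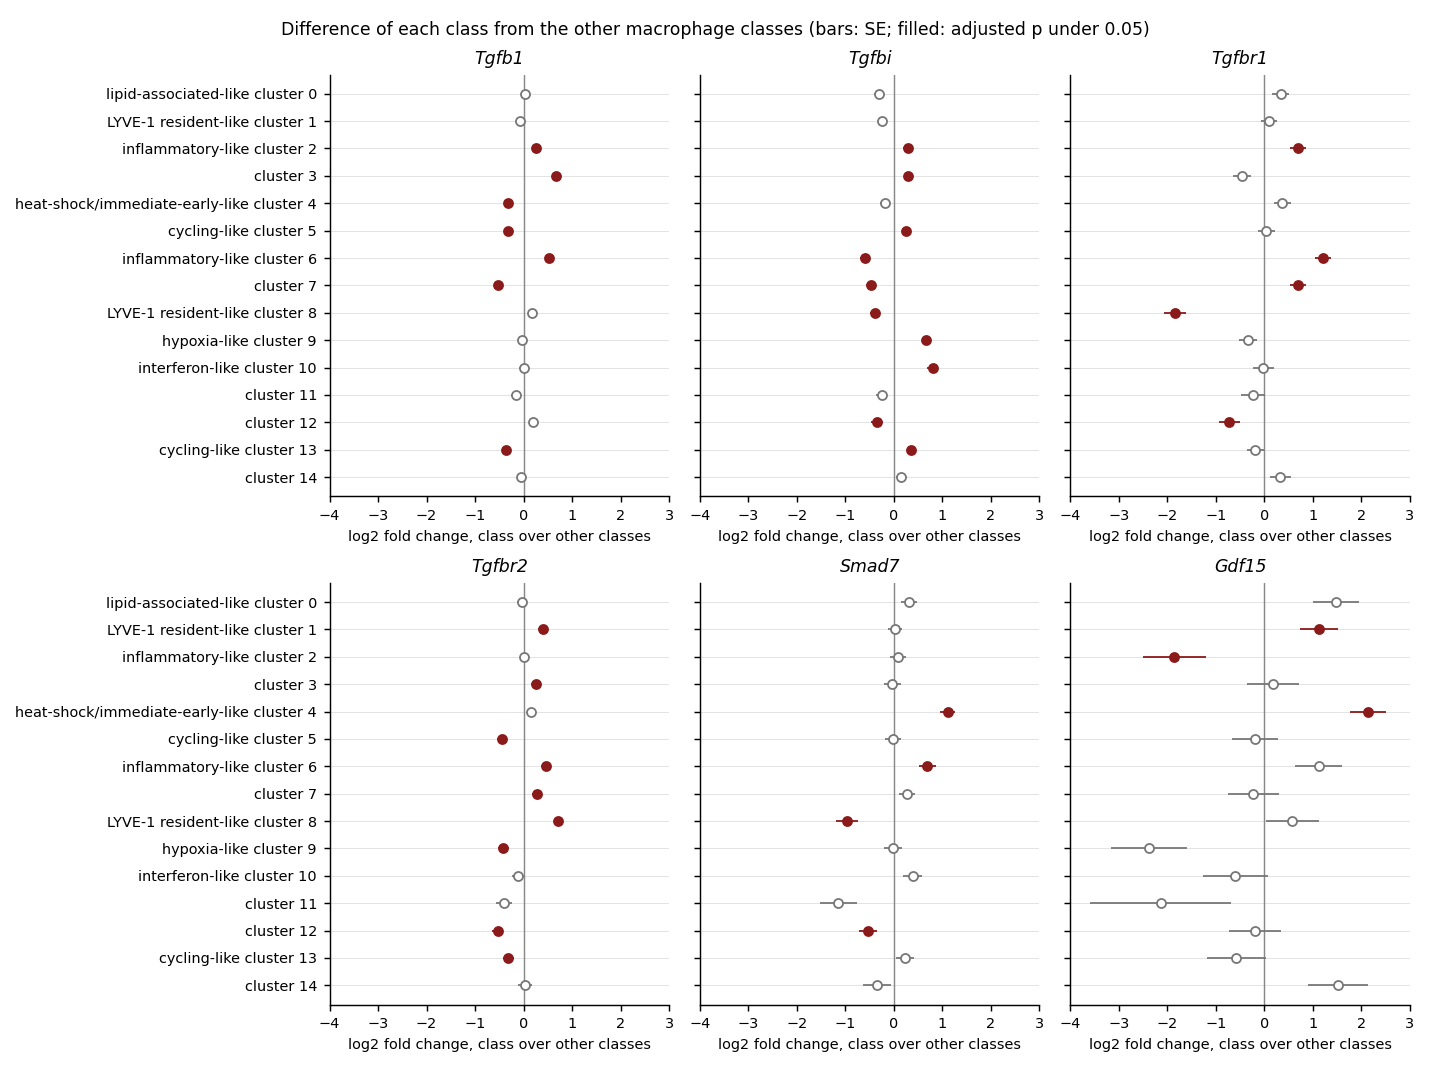
Log2 difference of each gene in each class against the mean of the other classes (edgeR), on the horizontal axis with standard errors as bars, with filled points where the adjusted p was under 0.05. Tgfbr1 reaches -1.84 and Tgfbr2 0.71 in cluster 8, Smad7 1.11 and Gdf15 2.14 in cluster 4, and Tgfb1 0.67 in cluster 3.

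Tgfb1, the ligand gene at chr7:25687002-25705077 (mm10, plus strand), was spread most evenly over the classes and was highest in the unnamed cluster 3, which was led by Plac8, Nrg1, Olr1 and the chemokine gene Ccl7. Cluster 3 of mice 1, 2 and 3 held 411, 525 and 404 CPM of Tgfb1, or 447 ± 67.9 CPM, against a mean of 308 CPM in the other classes. It was the highest class in every mouse, and the log2 difference was 0.67 ± 0.07 (SE; edgeR adjusted p = 1.34e-10). In the inflammatory-like cluster 6 the levels were 393, 406 and 349 CPM, with a log2 difference of 0.53 ± 0.08 (edgeR adjusted p = 2.55e-07). Tgfb1 was lowest in the unnamed cluster 7, which was led by Il16 and Txnip, at 298, 250 and 208 CPM, or a mean of 252 CPM against 322 CPM in the other classes. It was the lowest class in mice 2 and 3, while in mouse 1 clusters 0, 1, 4, 5 and 13 were lower. In cluster 7 the log2 difference was -0.53 ± 0.08 (edgeR adjusted p = 8.01e-07). The spreads of neighbouring classes largely overlapped: of the 14 neighbouring pairs in the order of levels, 3 differed beyond their spread, among them cluster 3 over cluster 6. The heat-shock and immediate-early-like cluster 4 (log2 -0.32) and the cycling-like clusters 5 (-0.33) and 13 (-0.36) were also lower, and the inflammatory-like cluster 2 was higher (0.25). Each of these last 4 calls was lost without mouse 2, with edgeR adjusted p of 0.083 to 0.13, and without mouse 3, with 0.054 to 0.16.

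The receptor genes Tgfbr1 and Tgfbr2 moved apart in the LYVE-1 resident-like cluster 8, a class of 42, 84 and 369 cells in mice 1, 2 and 3 led by Lyve1, Cd209d, Cd163 and Ccl24. Tgfbr1 stood at 20.1, 122 and 62.5 CPM in cluster 8, or 68.1 ± 51.0 CPM, against a mean of 263 CPM in the other classes. This was the lowest class in every mouse, although the level itself differed several-fold between mice. The log2 difference was -1.84 ± 0.23 (edgeR adjusted p = 2.13e-07) and ranged from -2.20 to -1.14 over 19 alternatives. Tgfbr2 stood at 133, 203 and 213 CPM in the same class, or 183 ± 43.4 CPM, against 115 CPM in the others. Mice 2 and 3 had their highest level here, and mouse 1 was surpassed by its clusters 1 and 7. The log2 difference was 0.71 ± 0.10 (edgeR adjusted p = 2.03e-08), ranging from 0.31 to 0.84 over 19 alternatives. Of the 6 genes, 1 rose and 3 fell in cluster 8, where 18.6% of all genes rose and 14.2% fell.

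The ratio of Tgfbr2 to Tgfbr1 UMIs shows this within each cell population, without a scaling to library size. UMIs are not divided by transcript length, so the ratio compares classes and not the amounts of both receptors. In cluster 8 it was 6.62, 1.67 and 3.40 in mice 1, 2 and 3, from 86, 195 and 674 UMIs of Tgfbr2 over 13, 117 and 198 UMIs of Tgfbr1. In the 40 sums of the other 14 classes it ran from 0.217 to 1.25, with a median of 0.449. The lowest mouse of cluster 8 thus lay above all of them. The next class was cluster 3, with 1.25, 0.534 and 0.962, while the other LYVE-1 resident-like class, cluster 1, averaged 0.638 and inflammatory-like cluster 6 had the lowest mean, 0.332. Thinned to 3000 UMIs, 11.4% of cluster 8 cells had a UMI of Tgfbr1 and 41.2% a UMI of Tgfbr2, as means over mice.

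**Figure D3:**
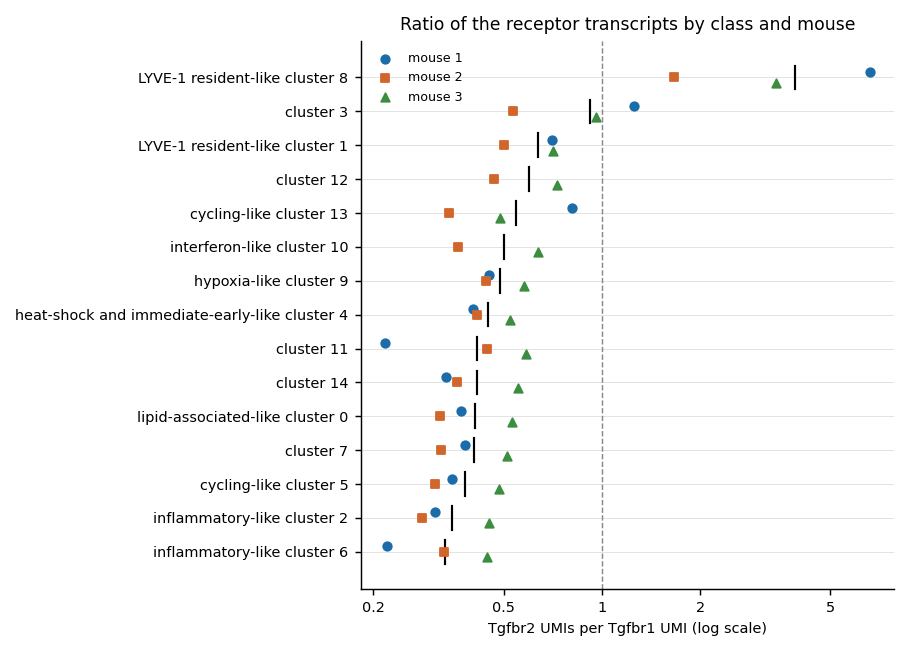
Tgfbr2 UMIs divided by Tgfbr1 UMIs on a log axis, by macrophage class, with 1 point per mouse, a vertical line at the mean and a dashed line at equal UMIs. The 3 mice of cluster 8 sit at 6.62, 1.67 and 3.40, above the highest value of the other classes, 1.25.

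Tgfbr1 levels moved with technical measures of the cells, and their part in the differences between classes was not tested. Split into 3 parts of equal size by mitochondrial share, the lowest to highest part of the macrophages held 172, 216 and 278 CPM in mouse 1, 258, 311.5 and 379 CPM in mouse 2 and 195, 222 and 233 CPM in mouse 3. Split by total UMIs, the parts held 287, 247 and 194 CPM in mouse 1 and 415, 364 and 278 CPM in mouse 2. In mouse 3 they held 238, 204 and 217 CPM. Cluster 8 had a median mitochondrial share of 4.63% and a median depth of 8258 UMIs. Over all 15 classes, cluster 8 among them, the medians ran from 3.78% to 5.63% and from 1951 to 26724 UMIs. A place inside a range that includes the class cannot tell what part these measures play. When each cell's UMIs were divided at random, with 1 set to cluster and the other to test, cluster 8 was not recovered as such. Its best match, a LYVE-1 resident-like class of 1139 cells, shared 369 cells with it. That class shared more cells, 600, with cluster 3, where Tgfbr1 averaged 161 CPM, so its values are not those of cluster 8 alone. In that class Tgfbr1 was lower (log2 -1.02 ± 0.20, edgeR adjusted p = 4.00e-04), while Tgfbr2 did not pass the test (0.22 ± 0.09, edgeR adjusted p = 0.0789).

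At the other end, Tgfbr1 was highest in inflammatory-like cluster 6 at 599, 436 and 304 CPM in mice 1, 2 and 3, or a mean of 446 CPM against 236 CPM in the other classes. It was the highest class in mice 1 and 3 and came after cluster 7 in mouse 2. The log2 difference was 1.21 ± 0.17 (edgeR adjusted p = 2.26e-06). Cluster 6 is the least stable of the classes, since the overlap of its cells with their best match stayed under 0.3 in 8 of 9 re-clusterings; the calls given for it rest on 13 alternatives. Tgfbr1 was also higher in cluster 7, at 407, 520 and 282 CPM (log2 0.69 ± 0.16, edgeR adjusted p = 0.00133; 0.083 without mouse 2). In inflammatory-like cluster 2 it stood at 321, 377 and 236 CPM (log2 0.69 ± 0.16, edgeR adjusted p = 0.00245), a call lost without mouse 2 (0.074) and without mouse 3 (0.13). It was lower in the unnamed cluster 12, at 163 and 136 CPM in mice 2 and 3 (log2 -0.72 ± 0.22, edgeR adjusted p = 0.0159). In cluster 3 it stood at 88.9, 257 and 136 CPM and did not pass the test (log2 -0.46, edgeR adjusted p = 0.0705). Of the 14 neighbouring pairs in the order of levels, 5 differed beyond their spread for Tgfbr1, and 5 did for Tgfbr2.

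Tgfbr2 rose modestly in other classes and fell in the cycling-like cells. The other LYVE-1 resident-like class, cluster 1, led by Retnla, Lyve1 and Cd209f, held 140, 164 and 171 CPM in mice 1, 2 and 3 (log2 0.39 ± 0.09, edgeR adjusted p = 9.47e-04), a call lost without mouse 2 (0.091) and without mouse 3 (0.14). Cluster 6 held 132, 143 and 136 CPM (log2 0.45 ± 0.10, edgeR adjusted p = 4.95e-04; 0.069 without mouse 2). Clusters 7 (log2 0.27) and 3 (0.25) also passed, but lost the call without any 1 of the 3 mice, with adjusted p of 0.080 to 0.23 in cluster 7 and 0.090 to 0.35 in cluster 3. Cycling-like cluster 5 was lower, with 78.2, 104 and 106 CPM (log2 -0.44 ± 0.10, edgeR adjusted p = 4.30e-04). Lower Tgfbr2 was also called in cycling-like cluster 13 (-0.32), lost without mouse 2 (edgeR adjusted p = 0.19) and without mouse 3 (0.26), in hypoxia-like cluster 9 (-0.42), lost without mouse 2 (0.17), and in cluster 12 (-0.54), lost in 6 of 18 alternatives.

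Smad7, the inhibitory Smad gene at chr18:75367529-75395935 (mm10, plus strand), was highest in the heat-shock and immediate-early-like cluster 4, which was led by Hspa1a, Hspa1b, Hsph1 and Dnajb1. Cluster 4 of mice 1, 2 and 3 held 170, 151 and 140 CPM of Smad7, or 154 ± 15.6 CPM, against a mean of 72.6 CPM in the other classes. All 3 values lay above those of the next class, cluster 6, at 110, 97.3 and 95.7 CPM. The log2 difference in cluster 4 was 1.11 ± 0.15 (edgeR adjusted p = 4.94e-06) and stayed between 0.85 and 1.5 over 20 alternatives. In cluster 6 it was 0.68 ± 0.18 (edgeR adjusted p = 0.00384, and 0.16 without mouse 2). In parts of the macrophages from lowest to highest total UMIs, Smad7 stood at 105, 81.5 and 75.1 CPM in mouse 1. These were 103, 91.3 and 67.5 CPM in mouse 2 and 94.7, 81.6 and 81.2 CPM in mouse 3. The part that depth plays in cluster 6, with a median of 7310 UMIs, was not tested. Smad7 was lower in LYVE-1 resident-like cluster 8, at 32.5, 26.0 and 48.3 CPM, or a mean of 35.6 CPM against 81.0 CPM in the other classes (log2 -0.97 ± 0.22, edgeR adjusted p = 8.90e-04; 0.074 without mouse 2). The shallow unnamed cluster 11, with a median of 1951 UMIs per cell, held as little, at 6.25, 37.5 and 42.1 CPM, but did not pass the test (log2 -1.15 ± 0.38, edgeR adjusted p = 0.0586). Cluster 12 (log2 -0.53) passed in the main setting and was lost in 10 of 18 alternatives. Of the 14 neighbouring pairs of classes, 2 differed beyond their spread. Of the 6 genes, 2 rose and 1 fell in cluster 4, where 8.38% of all genes rose and 6.14% fell.

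Tgfbi, the secreted matrix protein gene at chr13:56609523-56639562 (mm10, plus strand), was highest in classes defined by interferon, hypoxia and cell cycle genes. Interferon-like cluster 10 held 702 and 952 CPM in mice 2 and 3, or a mean of 827 CPM against 495 CPM in the other classes (log2 0.80 ± 0.11, edgeR adjusted p = 2.29e-07). This class gave no value without mouse 2 or without mouse 3, so its call could not be put to those settings. Hypoxia-like cluster 9, marked by Arg1 and Bnip3, held 725, 816 and 757 CPM in mice 1, 2 and 3, against a mean of 499 CPM (log2 0.67 ± 0.09, edgeR adjusted p = 5.13e-07). Cycling-like cluster 13 held 658, 687 and 652 CPM (log2 0.36 ± 0.09, edgeR adjusted p = 0.00254). In each of these classes every mouse compared lay above its own macrophage average. The overlap of clusters 9 and 13 with their best match was under 0.3 in 3 and 4 of 9 re-clusterings. Their Tgfbi calls rest on 18 and 17 alternatives. Tgfbi was lowest in inflammatory-like cluster 6, at 242, 332 and 290 CPM, or a mean of 288 CPM against 533 CPM (log2 -0.59 ± 0.11, edgeR adjusted p = 2.16e-05). Cluster 6 thus held the highest mean level of Tgfbr1 and the lowest of Tgfbi, the gene named for its induction by TGF-beta. Of the 6 genes, 5 passed the test in cluster 6, Tgfbi downwards and Tgfb1, both receptor genes and Smad7 upwards. Further calls for Tgfbi were higher in clusters 2, 3 and 5 and lower in clusters 7, 8 and 12, with log2 differences between -0.48 and 0.30. Without mouse 2 the calls in clusters 2 and 5 were lost (edgeR adjusted p = 0.21 and 0.075), and without mouse 3 those in clusters 2, 3 and 5 were (0.16, 0.067 and 0.46), the log2 difference in cluster 5 then being 0.16. The call in cluster 12 was lost in 10 of 18 alternatives.

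Gdf15, the stress cytokine gene, was concentrated in few cells. In mouse 3, 7409 UMIs of Gdf15 came from 18.3% of the macrophages, while the similar total of 7090 UMIs of Smad7 came from 46.7%. The 5% of cells with most Gdf15 UMIs held 88.0%, 78.2% and 75.1% of them in mice 1, 2 and 3, and a single cell held up to 127, 78 and 101 UMIs. The same share of cells held 33.0 ± 5.76% of Smad7 UMIs and 20.8 ± 1.99% of Tgfb1 UMIs. These 33, 104 and 348 high cells lay in 9, 12 and 13 of the classes, and they were deep, with medians of 23867, 27246 and 15884.5 UMIs, against 14951, 13275.5 and 9198 UMIs in the remaining macrophages. LYVE-1 resident-like cluster 1 held 12, 35 and 130 of them and cluster 4 held 9, 12 and 75. With every cell thinned to 3000 UMIs, the top 5% of cells held 92.0%, 93.9% and 79.8% of Gdf15 UMIs in mice 1, 2 and 3. They held 44.4 ± 5.59% of Smad7 UMIs and 20.2 ± 1.19% of Tgfb1 UMIs. Only 7.44% of thinned cells had a UMI of Gdf15, as a mean over mice, so its share in the top 5% is bound to be high. The part that depth plays in the concentration was not tested further.

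**Figure D4:**
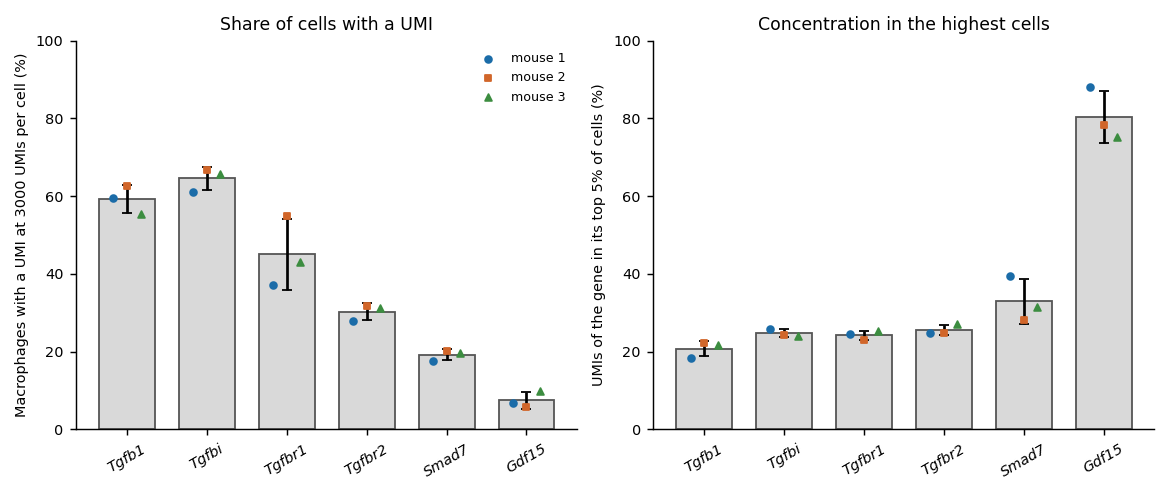
Left, the share of macrophages with a UMI of each gene at 3000 UMIs per cell, and right, the share of each gene's UMIs in the 5% of macrophages with most of them, both in percent (bars: mean and SD of 3 mice; points: mice). On the right, Gdf15 lies at 88.0%, 78.2% and 75.1%, above the other 5 genes in all 3 mice, and Tgfb1 is lowest on average at 20.8%.

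By class, Gdf15 was highest in the heat-shock and immediate-early-like cluster 4. Cluster 4 of mice 1, 2 and 3 held 129, 94.7 and 289 CPM, or 171 ± 104 CPM, against a mean of 50.6 CPM in the other classes. The class was the highest in mice 2 and 3, and in mouse 1 it was surpassed by clusters 0 and 1. The log2 difference was 2.14 ± 0.38 (edgeR adjusted p = 2.45e-04), and it held in 19 of 20 alternatives, being lost without mouse 3 (edgeR adjusted p = 0.195). A UMI of Gdf15 was found in 20%, 18.8% and 32.3% of cluster 4 cells. Cluster 4 thus held the highest mean of both Smad7 and Gdf15. Heat-shock and immediate-early genes also rise during enzymatic digestion of tissue, and the part that the 60 min at 37 °C plays in these levels was not tested.

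The other Gdf15 differences were less secure. LYVE-1 resident-like cluster 1 held 140, 41.5 and 124 CPM (log2 1.13 ± 0.38, edgeR adjusted p = 0.0414), a call lost without any 1 of the mice, with adjusted p of 0.071, 0.18 and 0.33 without mice 1, 2 and 3. This deep class, with a median of 26724 UMIs, gave 35.0%, 31.2% and 37.0% of all Gdf15 UMIs from 6.86%, 12.6% and 11.5% of the cells. It also held 15.6%, 27.7% and 25.9% of the macrophage UMIs of all genes in mice 1, 2 and 3. Lipid-associated-like cluster 0 held 297, 51.9 and 75.3 CPM and did not pass the test (log2 1.48 ± 0.47, edgeR adjusted p = 0.0603). In mouse 1 a single cell of that class gave 127 of its 173 UMIs, and without the highest cell of each mouse the levels were 81.7, 37.2 and 71.3 CPM. Inflammatory-like cluster 2 was lower, at 13.1, 11.2 and 12.2 CPM, or a mean of 12.1 CPM against 62.0 CPM (log2 -1.85 ± 0.65, edgeR adjusted p = 0.0396), a call lost without mouse 2 (log2 -2.05, edgeR adjusted p = 0.17) and without mouse 3 (log2 -0.98). Over all 21 alternatives this call held in 9, was lost in 11 and reversed in 1. In that class 3.85%, 7.61% and 7.09% of cells had a UMI, beside 5.56% of the epithelium-like cells, all at full depth. Thinned to 3000 UMIs, the shares were 3.10% as a mean over mice and 0% of 32 epithelium-like cells. Hypoxia-like cluster 9 was as low, at 12.6, 15.2 and 7.65 CPM, without passing the test (log2 -2.38 ± 0.79, edgeR adjusted p = 0.0576). Of the 14 neighbouring pairs in the order of Gdf15 levels, 2 differed beyond their spread.

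Between the 6 genes, co-expression was weak from cell to cell. In cells thinned to 3000 UMIs, Tgfbr1 and Smad7 had a Pearson r of 0.132, 0.106 and 0.0371 in mice 1, 2 and 3, over 587, 1926 and 6492 cells, and 0.118, 0.0691 and 0.0245 with class means removed. Cells with both were 1.31, 1.14 and 1.096 times as many as the shares of both genes gave. Tgfbr1 and Tgfbr2, the receptor pair, had r of 0.0403, 0.0474 and 0.0410. The cells of a mouse share a library, counts are sparse, and such r are descriptions of these cells. Over the 43 sums of class and mouse, centred within mouse, Tgfbr1 and Smad7 had a Pearson r of 0.51 and a Spearman rho of 0.56. These were 0.46 and 0.26 for Smad7 and Gdf15, 0.42 and 0.39 for Tgfbr2 and Gdf15, and 0.01 and 0.26 for Tgfbr1 and Tgfbr2. The sums of a mouse share its library and those of a class its markers and depth.

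**Figure D5:**
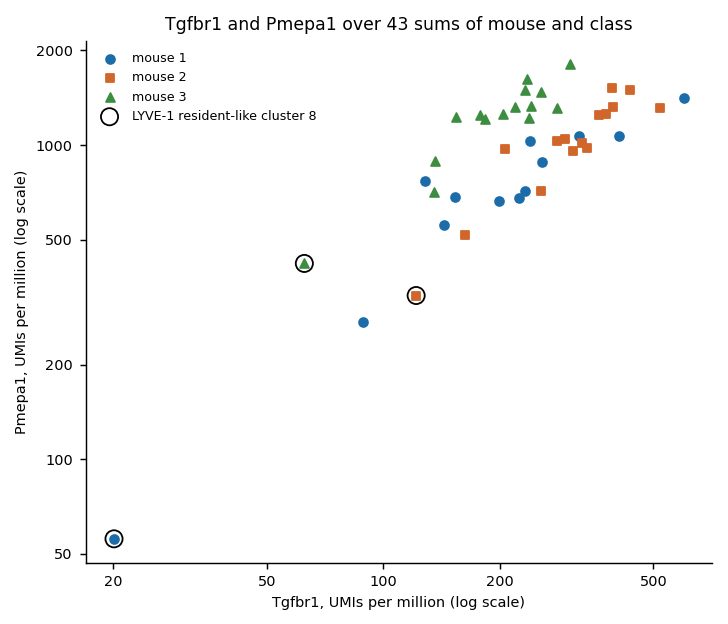
Tgfbr1 against Pmepa1 in CPM on log axes, with 1 point per class and mouse (43 sums) mice told apart by marker and cluster 8 ringed. The points of cluster 8 lie lowest on both axes in each mouse.

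Among 4825 genes, the profile most like that of Tgfbr1 over the 43 sums was that of Pmepa1, whose product is a membrane protein that restrains TGF-beta signalling and is induced by it, with r of 0.945, followed by Lpcat2 (0.938) and Abr (0.927). Pmepa1 was not used to form the classes. It stood at 55.7, 332 and 420 CPM in cluster 8 (log2 -1.98 ± 0.22) and at 1408, 1493 and 1805 CPM in cluster 6 (log2 1.05 ± 0.17). Pmepa1 was picked for its likeness, so these values describe it and are no separate result. Cell by cell, the r of Tgfbr1 and Pmepa1 was 0.332, 0.294 and 0.191, and 0.183, 0.192 and 0.116 with class means removed. The nearest profiles to Tgfbr2 were Mef2a (0.858) and Frmd4b (0.854), to Smad7 Nav2 (0.846) and Mgat4a (0.833), and to Tgfb1 Fam214b (0.796) and Stk40 (0.792). For Gdf15 they were Plk3 (0.753) and Impact (0.747), and for Tgfbi Ass1 (0.729) and Fxyd5 (0.716). Gdf15 and Atf3, a stress-induced transcription factor gene, had a cell-level r of 0.230, 0.133 and 0.211.

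The wider pathway was read from 6 lists of ligands, latency and activation genes, receptors, Smads and their regulators, target genes and stress-response genes of the Gdf15 regulators. The lists include the 6 genes themselves, so counts over them partly repeat the calls above. Some genes, Smad7 and Pmepa1 among them, stand in both the Smads and the target list. Variation across classes was called for 6 of 6 tested ligands, 11 of 12 latency genes, 8 of 10 receptors, 12 of 16 Smads and regulators, 11 of 11 target genes and 9 of 10 stress genes, beside 77.3% of all genes. Of the TGF-beta isoform genes, all macrophages held 41773 UMIs of Tgfb1, 1144 of Tgfb3 and 60 of Tgfb2, not divided by transcript length. Gfral, the receptor gene of GDF15, had 0 UMIs, which allows up to 3, and its partner Ret had 3. Cluster 6 had 27 of the 62 tested list genes higher and 3 lower, cluster 3 had 25 and 7, cluster 8 had 20 and 13, and cluster 7 had 11 and 19. In these classes 28.1%, 24.7%, 32.8% and 34.8% of all genes passed the test, higher and lower calls pooled.

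In cluster 6, 8 of the 11 tested target genes were higher and 1 lower, and in cluster 3, 6 were higher and 1 lower, while in cluster 7 none were higher and 7 were lower. The target genes include Tgfbi and Smad7, whose calls are given above. The shares of all genes called there in either direction were 28.1%, 24.7% and 34.8%. These pool higher and lower calls, and no share by direction was computed for these classes. Cdkn1a, the cell cycle inhibitor gene, stood at 51.6, 34.9 and 47.4 CPM in cluster 7 of mice 1, 2 and 3 (log2 -3.32 ± 0.16) and at 899, 775 and 675 CPM in cluster 3 (log2 1.43 ± 0.10). Id2, which encodes an inhibitor of helix-loop-helix factors, averaged 228 CPM in cluster 7 and 1295 CPM in cluster 3. Tgif1, a co-repressor of Smads, averaged 44.8 CPM in cluster 7 and 231 CPM in cluster 6. Cluster 7, with its high Tgfbr1 and low Tgfb1, was thus lowest for all 3 of these genes.

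In cluster 8, Bmp2 and Id3 of the bone morphogenetic protein branch were higher, beside the low Tgfbr1. The ligand gene Bmp2 stood at 13.9, 105 and 63.8 CPM in cluster 8 of mice 1, 2 and 3 (log2 4.84 ± 0.23), and its mean was 60.9 CPM there against 0.0900 CPM in the lowest class. Id3, a target gene shared with that branch, stood at 172, 113 and 159 CPM (log2 2.11 ± 0.19). Neither gene was particular to cluster 8: with this class counted, Bmp2 was called higher in 3 classes and Id3 in 4. Klf10, from the list of TGF-beta target genes, also had its highest class mean there, at 79.8 CPM. Of the 11 tested target genes, 4 were higher and 3 lower in cluster 8, beside 18.6% and 14.2% of all genes. The stress gene Nupr1 stood at 260, 319 and 320 CPM (log2 2.86 ± 0.14), and 5 of the 10 tested stress genes were higher and 1 lower in this class, where 18.6% of all genes were higher and 14.2% lower. Gdf15 itself did not pass the test in cluster 8, at 35.6, 78.0 and 69.1 CPM. In cluster 4, Atf3 stood at 1613, 2128 and 1498 CPM (log2 1.93 ± 0.15), the highest of all classes as for Gdf15 and Smad7. The stress list as a whole did not follow: of its 10 tested genes, 2 were higher and 1 lower in cluster 4, with a median log2 difference of 0.077. Of all genes, 8.38% were higher and 6.14% lower there. Tgfb3 was highest in hypoxia-like cluster 9, at 40.3, 16.7 and 20.2 CPM (log2 2.56 ± 0.37). Inhba, which encodes the activin A subunit, was highest in cluster 12, at 60.6 and 21.8 CPM in mice 2 and 3 (log2 4.41).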

How the data were processed

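Macrophages of 3 tumours were sequenced with 10x Genomics 3' chemistry, and the authors deposited raw UMI counts per gene and barcode, made with Cell Ranger 3.0.2 on mm10 per the submitters' processing notes. Replicate numbers follow the labels. Cells were kept from 500 genes and up to 15% mitochondrial UMIs. Scrublet marked 14 cells (0.144% of those that passed), too few for a working caller; they were removed, and removal at 0.8% per 1000 cells was an alternative. Cells were clustered in scanpy 1.11.5 (2000 variable genes scaled within mouse, 30 components, 15 neighbours, Leiden resolution 1), without the 6 genes, their pathway lists, ribosomal and mitochondrial genes, and named from 21 marker lists. The members and lists were chosen with earlier results of these data known. UMIs were summed per mouse and class (at least 10 cells, at least 2 mice; 43 sums) and tested with edgeR 4.0.16 (TMM, low-count filter, quasi-likelihood, Benjamini-Hochberg over the genes not used to cluster; 10352 genes fitted), each class against the mean of the others. The sums of a mouse come from the same animal, so the mouse was a block. DESeq2 1.42.0 was an alternative. Counting intervals and floors cover counting error only. Named genes outside the 6 come from the 16 list genes with the widest range between classes. These were taken among those called for variation and with a mean of at least 20 CPM in some class. The nearest profiles, among genes with a mean of at least 20 CPM, were named too. Gfral, Ret and Tgfb2 were named after their values were seen. The scripts were tested on simulated data.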

Additional observations from a re-analysis of the deposited data

Results flagged for a closer look

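Barcodes with at least 500 genes and over 15% mitochondrial UMIs, left out of every comparison above, held signal of all 6 genes. They numbered 318, 222 and 213 in mice 1, 2 and 3, with medians of 3424, 2464 and 1848 UMIs. With any number of genes, 387, 298 and 307 barcodes lay over the mitochondrial limit. In CPM computed over the UMIs of non-mitochondrial genes, Tgfbr1 stood at 812, 829 and 619 in these barcodes, against 232, 329 and 227 in the kept macrophages. It was higher in all 3 mice, by 3.50, 2.52 and 2.72 times. Smad7 stood at 236, 195 and 201 in the removed barcodes, against 84.6, 80.9 and 87.3 in the kept macrophages. Tgfbi stood at 976, 630.0 and 619, against 501, 524 and 546, and Tgfb1 at 398, 516 and 364, against 327, 384 and 294. Tgfbr2 stood at 194, 189 and 155, against 113, 136 and 141. Gdf15 was the exception, at 65.8, 33.8 and 86.0 in the removed barcodes, against 65.2, 38.7 and 91.2 in the kept macrophages. Each value lay above the floor that 3 UMIs set, 3.46, 5.63 and 8.60 CPM in mice 1, 2 and 3. The removed barcodes have no untreated samples beside them, their cell types were not assigned, and the cause was not tested.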

How the results depend on the processing

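Of 711 comparisons of a called gene and class with an alternative setting, 553 kept direction and call, 155 kept the direction and lost the call and 3 reversed. The reversals were Tgfbi in cluster 8 with doublet calls kept (log2 0.11), and Tgfbi (-0.20) and Gdf15 (0.31) in cluster 2 with 4000 variable genes. The 38 pairs called became 16 to 47 without 1 mouse, 19 with no replicate block, 23 with 25% mitochondrial UMIs allowed, 23 at Leiden resolution 0.5, 24 with 4000 variable genes and 19 with clusters and tests on separate UMIs. The share of all genes called for variation, 77.3%, became 43.8% with no filter on low counts and 47.8% to 73.1% without 1 mouse. Variation was called for 5 of the 6 genes without mouse 3 and at Leiden resolution 0.5, and for all 6 in the other settings. Thinned to 1500 rather than 3000 UMIs, the shares of cells were 36.4% for Tgfb1, 45.3% for Tgfbi, 29.7% for Tgfbr1, 16.4% for Tgfbr2, 11.1% for Smad7 and 4.98% for Gdf15. The mouse block was the main fit, and without it 20 of the 38 calls were lost. Removing clusters 11 and 14, or cluster 4, was chosen after seeing the data and cost 2 calls each. Depth limits shares of cells: Gdf15 had a UMI in 7.44% of cells at 3000 UMIs per cell and in 14.99% at full depth.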
